A study of Mus musculus with 4 samples.

Results

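Actins and alpha-actinins were compared between muscle of transgenic mice that overexpress the nuclear receptor PPARbeta and muscle of their non-transgenic littermates. The genes are the 6 actin isoforms (the cardiac gene Actc1, the skeletal gene Acta1, the smooth muscle genes Acta2 and Actg2, and the cytoplasmic genes Actb and Actg1) and the 4 alpha-actinins Actn1 to Actn4, 10 genes in all. The genes were chosen by family name, with the low signal of Actc1 in the transgenic mice already known, and they were found by symbol: every probe set annotated to exactly 1 of these symbols was taken, 17 in number, of which 3 are control probe sets for Actb. The array names 12393 genes in all. Of the 14 other probe sets, the one of highest mean log2 signal over all 4 arrays represents its gene. No probe set named a member together with another gene.

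The samples are total RNA of the gastrocnemius of the calf, in which fast fibres prevail, from mice aged 6 weeks. Labelled cRNA was measured on 4 Affymetrix arrays, 2 with RNA of wild-type littermates without the transgene, called non-transgenic or littermates, and 2 with RNA of MCK-PPARb mice. MCK stands for muscle creatine kinase, whose promoter is active in skeletal and heart muscle fibres; the labels name no strain or line. Arrays of a group are biological replicates per the labels. The design text can also be read as repeated arrays of the same mice, and the p-values would then hold the spread between arrays only, which may be technical.

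Actin polymerises into the thin filaments on which myosin pulls. In striated muscle these filaments are anchored at the Z-disc by alpha-actinin, while cytoplasmic actins and the non-muscle alpha-actinins Actn1 and Actn4 build the cytoskeleton of most cells. Actc1 is the main sarcomeric actin of the adult heart and is also made by developing skeletal muscle, where Acta1 takes its place after birth. Actn2 is made in all striated fibres, and Actn3 in fast fibres.

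Promoters of Actc1 and Acta1 are shown because the signals of these sarcomeric actins differed unequally between the groups, by a large amount for Actc1 and by less than the spread between arrays for Acta1. RefSeq promoters of assembly GRCm38.p6 were used, which hold 250 bases before the annotated start of a gene and 50 from it on. Of the 10 genes, 7 had an entry, and Actg2, Actb and Actn3 had none. In capitals are the CArG box, the site of serum response factor (a CC, a run of A and T, and a GG), the letters TATAAA and, in Acta1, the MCAT letters CATTCC. The Actc1 window is chr2:114052826-114053125 and the Acta1 window chr8:123894726-123895025, both on the minus strand.
Actc1: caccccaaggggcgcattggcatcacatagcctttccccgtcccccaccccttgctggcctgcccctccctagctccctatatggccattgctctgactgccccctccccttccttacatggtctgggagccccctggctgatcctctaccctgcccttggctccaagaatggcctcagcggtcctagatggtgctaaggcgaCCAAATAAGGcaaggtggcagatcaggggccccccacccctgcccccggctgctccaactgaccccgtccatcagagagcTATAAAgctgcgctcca
Acta1: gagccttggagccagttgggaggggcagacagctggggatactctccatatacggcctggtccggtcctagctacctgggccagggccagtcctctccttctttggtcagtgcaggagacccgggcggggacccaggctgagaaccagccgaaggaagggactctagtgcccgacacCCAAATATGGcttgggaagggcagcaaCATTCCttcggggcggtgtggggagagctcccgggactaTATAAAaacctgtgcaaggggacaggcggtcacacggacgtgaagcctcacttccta

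Both sarcomeric actin windows held a CArG box on the strand shown, starting 47 bases before the annotated start in Actc1 and 73 bases before it in Acta1. A CArG box was found in 3 of the 7 member promoters, those of Actc1, Acta1 and the cytoplasmic gene Actg1, against 1.63% of all 32851 promoters of the same length. TATAAA, searched on both strands, was found in Actc1 and Acta1 alone among the 7 and in 13.6% of all promoters. In Actc1 these letters begin at base 34 of the annotated gene, downstream of its start, and in Acta1 they begin 7 bases upstream. CATTCC, searched on both strands, was found in Acta1, Acta2 and Actn4 and in 14.7% of all promoters. The E-box CANNTG, which like the CArG box reads alike on both strands, was in all 7 and in 72.3% of all promoters. The motifs did not overlap in the printed windows. A match is a description of letters and was not tested as a binding site.

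Ppard, the gene of PPARbeta, read 2169 and 2825 on the non-transgenic arrays, against 126049 and 98797 on the MCK-PPARb arrays, which matches the labels. Trimmed by 2% of probe sets on both sides, the mean signal of every array was 1501. The highest signals were brighter on non-transgenic replicate 1, with 4.11% of its signal in its 10 brightest probe sets against 2.29% to 2.71% on the other arrays. On that array Acta1, Actn3 and Actc1 ranked 12, 19 and 34 by signal among all 22690 probe sets. Markers of skeletal fibres (8 of 8 on the array, all above the filter) summed to 1496874 and 805147 in littermates, against 974271 and 842859 in MCK-PPARb muscle, which fits the labelled tissue.

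Over all genes tested, 50 of 6841 were called at an adjusted p under 0.05 with limma, which is 0.731%. Of these, 28 (0.409%) were higher and 22 (0.322%) lower in MCK-PPARb muscle. With median centring the split was 33 higher and 41 lower, and the median difference over all genes moved from 0.011 to -0.095 on the log2 scale. All 10 actin and alpha-actinin genes passed the filter on low signals, which uses the mean over all 4 arrays, as did 13 of their 14 probe sets. Actc1 had the lowest difference of all 6841 genes, which was known when this gene family was chosen, so its values are given as a description with no test. None of the other 9 genes was called in either direction, and 2 of them, Actg2 and Actn2, had a limma p under 0.05 before adjustment, against 10.9% of all genes. The groups did not overlap for the same 2 genes, 1 higher and 1 lower, against 42.9% of all genes. The median log2 difference of the 9 genes was -0.026, in a range of -0.82 to 0.77.

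**Figure D1:**
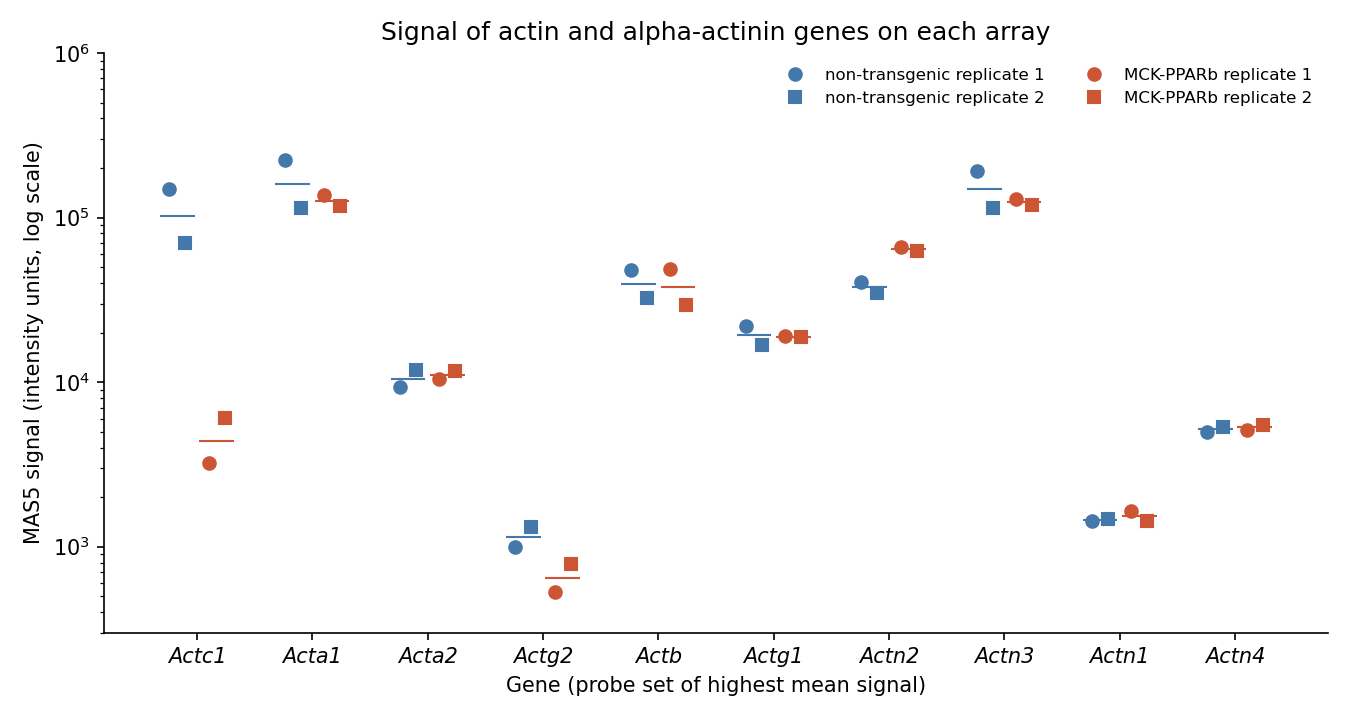
Signal of each gene's brightest probe set on each array, in MAS5 intensity units on a log axis; blue marks are the 2 non-transgenic and red marks the 2 MCK-PPARb arrays (circle for replicate 1, square for replicate 2), and lines are group means of log2 signal. The groups lie apart for Actc1, at 149762 and 69947 against 3228 and 6023, as they do for Actg2 and Actn2, while the other genes overlap; heights of different genes cannot be compared on an array.

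Actc1, the cardiac alpha-actin, read 149762 and 69947 on the non-transgenic arrays, against 3228 and 6023 on the MCK-PPARb arrays. Both non-transgenic arrays lay far above both MCK-PPARb arrays, and the closest pair of arrays differed 11.6-fold. The log2 difference was -4.54 ± 0.41 (SE, n = 2 per group), a 23.2-fold lower mean. The arrays of a group also differed from each other: the log2 SD was 0.78 in non-transgenic and 0.64 in MCK-PPARb muscle. With each array left out in turn the difference ran from -5.09 to -3.99. Even in MCK-PPARb muscle the signals stayed above the filter level of 444 units, so the difference is measured on both sides. Actc1 has 1 probe set on the array. In bulk RNA, fewer cells that make a transcript and less of it per cell cannot be told apart.

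Acta1, the adult skeletal alpha-actin, did not pass. It read 223921 and 113926 on the non-transgenic arrays, against 136104 and 118002 on the MCK-PPARb arrays. Both MCK-PPARb values lie between the 2 non-transgenic values, so the groups overlapped. On the log2 scale the groups differed by -0.33 ± 0.32 (adjusted p = 0.784 with limma), with a 95% interval of -1.09 to 0.42. Its sign followed non-transgenic replicate 1, on which the highest signals were brighter: leaving it out gave 0.15, leaving out non-transgenic replicate 2 gave -0.82, and with quantile normalization it was -0.023.

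A ratio of signals within an array is not a ratio of transcript abundance, but its change between groups shows that probe sets changed unequally. The log2 ratio of Actc1 to Acta1 was -0.58 and -0.70 on the non-transgenic arrays, against -5.40 and -4.29 on the MCK-PPARb arrays. The non-transgenic arrays, which differed 2.14-fold in Actc1 and 1.97-fold in Acta1, were close to each other in this ratio. The difference between groups was -4.20 ± 0.56, or 18.4-fold, and ran from -4.76 to -3.65 with each array left out in turn. As Actc1 was chosen with its difference known, no test is given.

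Markers of heart muscle other than Actc1 did not all differ in one direction. Of 8, 7 are on the array and 1, Mybpc3, a myosin-binding protein, was above the filter. It passed only through its MCK-PPARb signals, 727 and 755, against 389 and 355 in littermates. The summed signal of the 7 was 1528 and 1460 in littermates, against 2714 and 3702 in MCK-PPARb muscle. Tnni3, cardiac troponin I, alone gave 1350 of the last sum. The means of 4 were higher in MCK-PPARb muscle (Myh6, Nppb, Tnni3 and Mybpc3) and those of 3 lower (Nppa, Myl7 and Ryr2, at -0.31, -0.22 and -0.20), with a median log2 difference of 0.99. Nppa and Myl7, atrial markers, read 78.6 to 202 on all arrays, below the filter level; no signal on these arrays is 0. Markers of skeletal fibres had a median of -0.32, and none of the 8 was called (limma, adjusted p under 0.05). Their part in the signal of Actc1 was not tested.

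The 5 genes whose log2 profile over the 4 arrays, centred on its mean, lay nearest to that of Actc1 were Ighm, Smox, Tspan8, Cd24a and Smim27. Their Euclidean distances were 0.81, 0.97, 1.87, 2.23 and 2.27 on the log2 scale, against a median of 4.67 over all genes. Ighm, the immunoglobulin mu heavy chain, read 5033 and 2010 against 196 and 214, and Smox, spermine oxidase, 16072 and 14836 against 869 and 1129. Among the other members, distances ran from 3.87 for Actg2 to 5.39 for Actn2. These likenesses are a description over 4 arrays and rest mostly on the difference between the groups.

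Of the smooth muscle actins, neither passed. Acta2, the actin of vascular smooth muscle, read 9333 and 11795 in littermates, against 10390 and 11611 in MCK-PPARb muscle. The MCK-PPARb values lie within the non-transgenic range. The log2 difference was 0.066 ± 0.20 (adjusted p = 0.942 with limma), with a 95% interval of -0.40 to 0.53, and its sign turned with median centring (-0.040). The second probe set of Acta2 was below the filter, at 114 and 135 against 101 and 17.1, so its lower values in MCK-PPARb muscle differ in sign from the first but have no test.

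Actg2, the actin of visceral smooth muscle, had signals near the filter level of 444 units. It read 988 and 1312 in littermates, against 531 and 784 in MCK-PPARb muscle, and the groups did not overlap. On the log2 scale the groups differed by -0.82 ± 0.33, with a 95% interval of -1.59 to -0.049 before adjustment. It did not pass (adjusted p = 0.440 with limma, 0.168 to 0.928 over the alternatives), and the difference was -0.54 without MCK-PPARb replicate 1 and -1.10 without MCK-PPARb replicate 2. Markers of smooth muscle and pericytes (9 of 9 on the array, 6 above the filter) summed to 32337 and 46630 in littermates, against 39050 and 37318 in MCK-PPARb muscle. Their median log2 difference was -0.13, with 3 higher and 6 lower in MCK-PPARb muscle, and none was called. Myh11, the smooth muscle myosin heavy chain, read 540 and 965 against 245 and 853, the same direction as Actg2. Smtn, smoothelin, went the other way without overlap, at 8706 and 8482 against 12303 and 12742 (0.54). Cnn1, below the filter, and Tagln were also higher, by 0.60 and 0.059. The part of these cells in the Actg2 signal was not tested.

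**Figure D2:**
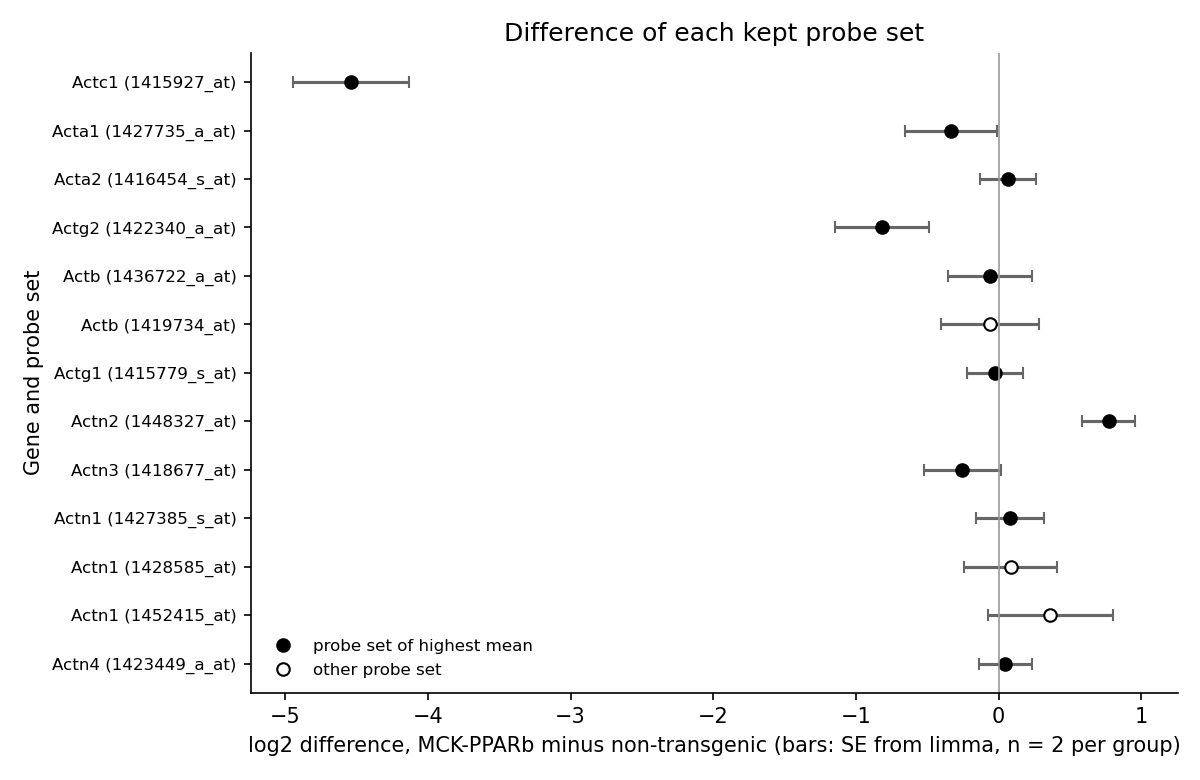
Log2 difference (MCK-PPARb minus non-transgenic) of each of the 13 kept probe sets, with the SE from limma (n = 2 per group); filled points are the probe sets that represent their gene. Actc1 lies at -4.54, Actn2 at 0.77 and Actg2 at -0.82, and the other points lie between -0.33 and 0.36.

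The cytoplasmic actins, present in nearly every cell, did not pass. Actb read 48170 and 32437 in littermates, against 48687 and 29471 in MCK-PPARb muscle, so that the replicates of a group differed more than the groups did. The log2 difference was -0.061 ± 0.30 (adjusted p = 0.964 with limma), with a 95% interval of -0.75 to 0.63. Another kept probe set read 14511 and 6641 against 8868 and 9988, with the same difference of -0.061. Actg1 read 21915 and 16870 in littermates, against 19007 and 18762 in MCK-PPARb muscle. Its values in MCK-PPARb muscle were nearly equal and lay within the non-transgenic range. The difference was -0.026 ± 0.20 (adjusted p = 0.976), with a 95% interval of -0.49 to 0.43, and turned to 0.0042 with quantile normalization. The signs of both genes turned without non-transgenic replicate 1, to 0.22 for Actb and 0.16 for Actg1.

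Markers of fibroblasts, which hold much cytoplasmic actin, summed to 302480 and 258367 in littermates, against 291070 and 240405 in MCK-PPARb muscle. All 6 were above the filter and none was called, with a median of -0.15. Markers of the endothelium (median -0.041) and of macrophages (0.051), 6 of 6 above the filter in each, were not called either. Satellite cell markers, 1 of 4 above the filter, summed to 1310 and 823 in littermates, against 1633 and 1135 in MCK-PPARb muscle. By mean log2 signal 4 were higher and 0 lower, with a median of 0.56, and none was called. The marker above the filter, Chodl, passed it through its MCK-PPARb signals, 639 and 603. In littermates it read 456 and 388, around the filter level of 444 units. The other satellite cell markers were below the filter, so this count and median rest mostly on weak signals.

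Actb is also read by 3 control probe sets along the transcript, which were kept out of the test. The 5-prime one was the brightest probe set annotated to Actb, at 173720 and 97816 in littermates, against 121907 and 104175 in MCK-PPARb muscle. The 3-prime one read 83643, 57955, 70644 and 58161 in the same order, and the middle one 32259, 24318, 32446 and 20519. Their log2 differences were -0.21, -0.12 and -0.12, and the groups overlapped for each. Within arrays, the log2 ratio of the 5-prime control to Acta1 spanned 0.21 over the 4 arrays, while its ratio to the probe set that represents Actb spanned 0.53. For the other two controls the span to Acta1 was the wider: 0.47 against 0.44 to Actb for the 3-prime one, and 0.73 against 0.17 for the middle one. Coding sequences of actin isoforms are closely alike, and how far a probe set reads the transcripts of another isoform was not tested. This holds for the probe sets of Acta2 and Actg1 in particular, whose suffix _s_at marks probes shared between transcripts.

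Among the sarcomeric alpha-actinins, Actn2 had the higher signals in MCK-PPARb muscle. It read 40601 and 34940 on the non-transgenic arrays, against 66293 and 62447 on the MCK-PPARb arrays. The groups did not overlap, and the closest pair of arrays differed 1.54-fold. On the log2 scale the groups differed by 0.77 ± 0.19, or 1.71-fold, with a 95% interval of 0.34 to 1.21 before adjustment. It did not pass over all genes (adjusted p = 0.165 with limma), and 7.12% of all genes had a difference of at least this size in either direction. Without non-transgenic replicate 1, which leaves 1 array in that group, the difference was 0.88. The alternatives that kept all 4 arrays gave adjusted p from 0.0520 to 0.371 with limma. Markers of adipocytes summed to 2284 and 2590 against 4248 and 4870 in MCK-PPARb muscle, with 4 of 6 on the array and 2 above the filter. Their median log2 difference was 0.28, with 2 higher and 2 lower. The 2 higher, Adipoq (1.03) and Retn (1.02), were those above the filter, and the 2 lower were below it. Those of Schwann cells, 3 of 5 on the array and 2 above the filter, summed to 17035 and 18964 against 29009 and 32982, with 2 higher, 1 lower and a median of 0.67. The 2 higher, Mbp (0.96) and Pmp22 (0.67), were those above the filter, and the lower one was below it. No adipocyte or Schwann cell marker was called. Their part in the signal of Actn2 was not tested.

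Actn3, the alpha-actinin of fast fibres, read 190901 and 114902 in littermates, against 130136 and 118359 in MCK-PPARb muscle. As for Acta1, both MCK-PPARb values lie between the non-transgenic ones. The log2 difference was -0.26 ± 0.27 (adjusted p = 0.806 with limma), with a 95% interval of -0.89 to 0.38. It was 0.11 if non-transgenic replicate 1 was left out, -0.62 if replicate 2 of that group was, and -0.0016 with quantile normalization. The log2 ratio of Actn3 to Acta1 within arrays was -0.23 and 0.012 in littermates, against -0.065 and 0.0044 in MCK-PPARb muscle. The signals of these probe sets thus kept nearly the same ratio on all arrays. Both read near the top of the scale. On non-transgenic replicate 2 they read 114902 and 113926, where the highest signal outside the controls was 137470. On MCK-PPARb replicate 2 they read 118359 and 118002, against 144290. Whether signals level off there was not tested.

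The log2 ratio of Actn3 to Actn2 was 2.23 and 1.72 on the non-transgenic arrays, against 0.97 and 0.92 on the MCK-PPARb arrays. The groups did not overlap, and the ratio was 1.03 on the log2 scale, or 2.04-fold, lower in MCK-PPARb muscle (SE 0.26). A two-sided exact permutation test gave p = 0.333, the smallest that 2 arrays against 2 allow, so that this test cannot pass 0.05 here whatever the values. The difference in the ratio ran from -1.29 to -0.77 with each array left out in turn and was -0.81 with quantile normalization. Taken singly, Actn2 differed by 0.77 and Actn3 by -0.26 between the groups, and neither passed. With quantile normalization these differences were 0.81 and -0.0016.

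**Figure D3:**
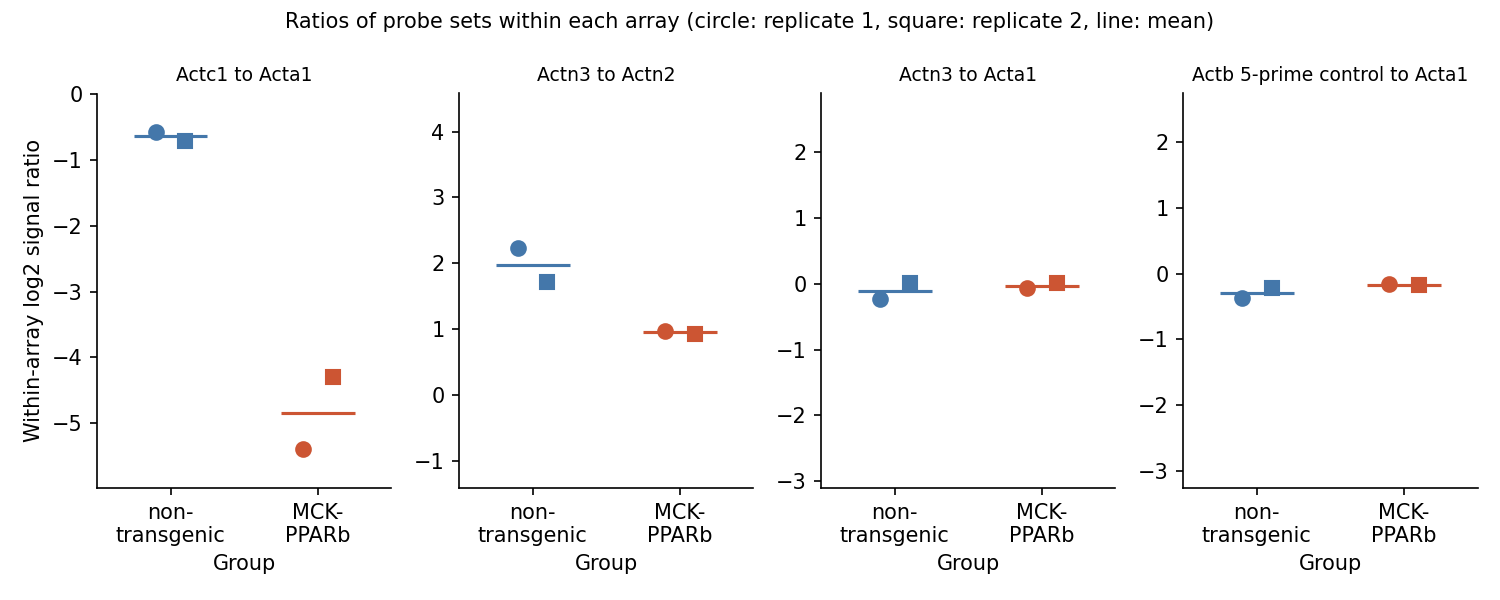
Within-array log2 signal ratios on each array for 4 pairs of probe sets, by group; each panel spans the same height of 6 log2 units, and lines are group means. Actc1 to Acta1 and Actn3 to Actn2 lie apart between groups, while Actn3 to Acta1 and the 5-prime Actb control to Acta1 span 0.24 and 0.21 over all arrays.

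The non-muscle alpha-actinins Actn1 and Actn4, which cross-link actin in the cytoskeleton, did not pass. Actn1 read 1436 and 1480 in littermates, against 1652 and 1440 in MCK-PPARb muscle, and its groups overlapped. Its log2 difference was 0.081 ± 0.24 (adjusted p = 0.941 with limma), with a 95% interval of -0.47 to 0.63. Its other probe sets had differences of 0.085 and 0.36, of the same sign. Actn4 read 4966 and 5355 against 5135 and 5516, the closest replicates among the members in non-transgenic muscle after those of Actn1. Its difference was 0.046 ± 0.19 (adjusted p = 0.958), with a 95% interval of -0.39 to 0.48. The signs of both turned with median centring, to -0.025 and -0.060.

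**Figure D4:**
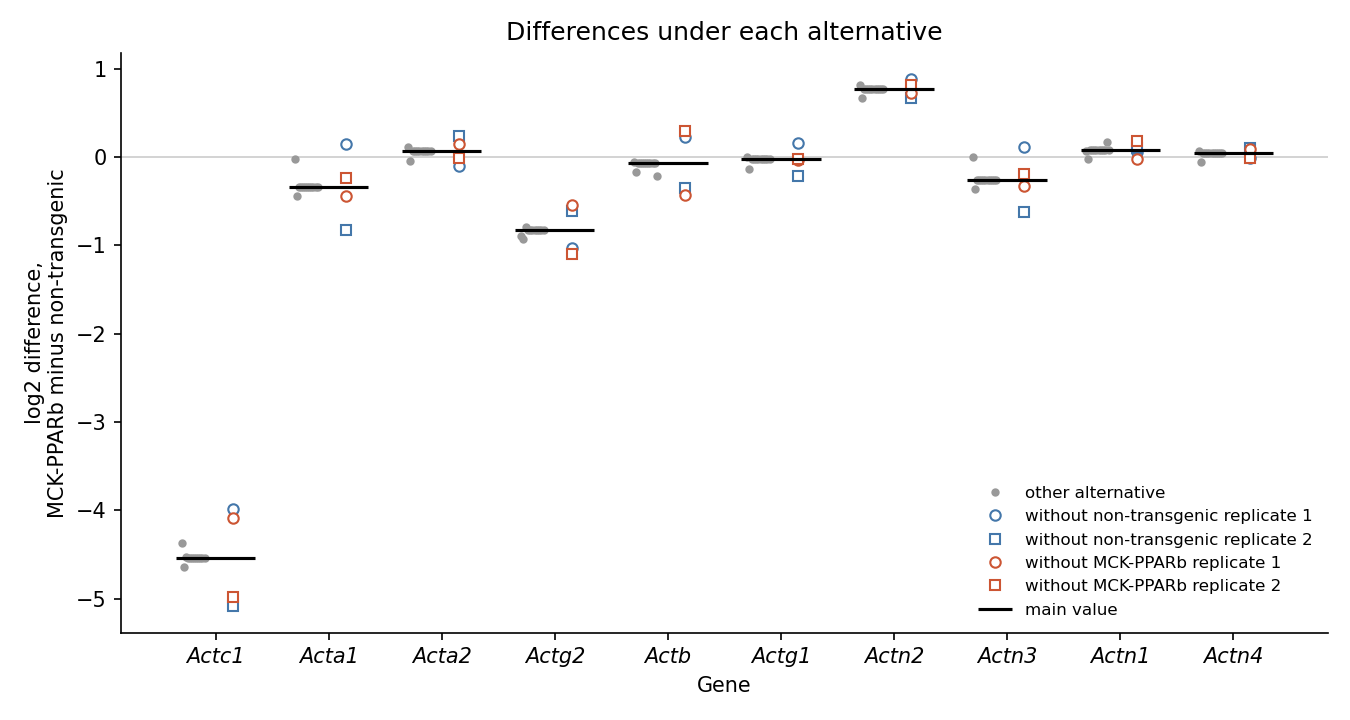
Log2 differences of the 10 genes under each processing alternative; black lines are the reported values, open symbols leave out 1 array and grey points are the other alternatives. Actc1 stays between -5.09 and -3.99 and Actn2 between 0.66 and 0.88, while Acta1 and Actn3 move from below to above 0 when non-transgenic replicate 1 is left out.

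Genes that work with actin and alpha-actinin were taken as 4 lists. Of 24 genes that assemble, cap or turn over actin filaments, 19 are on the array and 18 passed the filter. Of these, 1 rose, none fell and 17 did not pass, where 0.409% of all genes were called higher and 0.322% lower. An unadjusted p under 0.05 was found for 9, against 10.9% of all genes. Their median log2 difference was -0.23, against 0.011 over all genes, and 4 were above and 14 below 0. The groups did not overlap for 3 higher and 8 lower members, against 22.2% and 20.8% of all genes.

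Lmod2, a leiomodin that lengthens thin filaments at their pointed end, was the gene that rose. It read 6273 and 7303 in littermates, against 18967 and 18358 in MCK-PPARb muscle, more than its spread on either side (log2 1.46 ± 0.18, 2.76-fold, adjusted p = 0.0205 with limma, 0.000599 to 0.135 over the alternatives). The call was lost without MCK-PPARb replicate 1 or 2 (adjusted p = 0.0937 and 0.0928) and without the intensity trend (0.135). Wdr1, which speeds up the disassembly of filaments by cofilin, read 6069 and 4584 against 11631 and 14787 and did not pass (1.31 ± 0.22, adjusted p = 0.0650). It passed without non-transgenic replicate 1 (1.52, adjusted p = 0.0143) and with quantile normalization (0.0458), and the alternatives gave adjusted p from 0.00321 to 0.303. Tmod4, a tropomodulin that caps the pointed end in skeletal muscle, read 41313 and 37183 against 19916 and 23366 (-0.86 ± 0.19, adjusted p = 0.124). Cfl2, the cofilin of muscle, read 26944 and 27485 against 41758 and 48702 (0.73 ± 0.18, adjusted p = 0.184). Other kept probe sets of Wdr1 had the same sign but smaller differences, 0.758 and 0.756 (adjusted p = 0.258 and 0.488 with limma). Averaging the probe sets of Wdr1 gave 0.94 (adjusted p = 0.143 with limma). The other kept probe set of Cfl2 had a difference of 0.74.

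Of 24 partners of alpha-actinin and other Z-disc genes, 20 are on the array and all 20 passed the filter. Of these, 1 rose, none fell and 19 did not pass, against 0.731% of all genes called in either direction. The median was 0.035, and 4 had an unadjusted p under 0.05, against 10.9% of all genes. Without overlap of the groups, 5 members were higher and 3 lower, against 22.2% and 20.8% of all genes. Pdlim1, a PDZ and LIM domain protein that binds alpha-actinin, rose from 6670 and 6676 to 14992 and 14986. Its replicates were nearly equal in both groups (log2 1.17 ± 0.17, 2.25-fold, adjusted p = 0.0381 with limma, 0.00313 to 0.204 over the alternatives). The call was lost without MCK-PPARb replicate 1 or 2 (adjusted p = 0.194 and 0.204), without the intensity trend (0.204) and with median centring (0.0682). Flnc, the filamin of muscle, read 6058 and 6887 against 12029 and 12501 and did not pass (0.92 ± 0.18, adjusted p = 0.0939). Myoz2, a calsarcin of slow and cardiac muscle, had a difference of 0.57 (adjusted p = 0.348). Pdlim7 had one of -0.47 (adjusted p = 0.389), and its other kept probe set one of -0.039.

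Of 12 regulators of serum response factor targets, 11 are on the array and 4 passed the filter. None of the 4 was called, against 0.731% of all genes, and 0 had a limma p under 0.05 before adjustment, against 10.9%. Of the 4, 0 were higher and 1 was lower without overlap of the groups, against 22.2% and 20.8% of all genes. Srf read 4504 and 3627 in littermates, against 3836 and 3963 in MCK-PPARb muscle (log2 -0.052, adjusted p = 0.957), and its sign turned without non-transgenic replicate 1 (0.10). Its coactivator gene Mrtfa had a difference of -0.17 and Smyd1, a methyltransferase of striated muscle, one of 0.11, with a second probe set of Smyd1 at -0.0024.

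Developing muscle makes Actc1 along with other fetal isoforms. Of 11 genes typical of developing or denervated muscle, all 11 are on the array and 6 passed the filter. None of the 6 was called, against 0.731% of all genes, and 2 had a limma p under 0.05 before adjustment, against 10.9%. Their median was 0.50, with 4 above and 2 below 0. Without overlap of the groups, 3 were higher and 0 lower, against 22.2% and 20.8% of all genes. Chrna1, a subunit of the acetylcholine receptor, read 1369 and 1240 against 3362 and 3100. The groups lay well apart, but it did not pass (1.31 ± 0.22, adjusted p = 0.0606 with limma). For Chrna1 the alternatives that kept all 4 arrays gave adjusted p from 0.00460 to 0.163. Its difference was 1.38 without non-transgenic replicate 1. Myh8, the perinatal myosin heavy chain, had a difference of 1.19 ± 0.39 (adjusted p = 0.329). It read 260 and 407 in non-transgenic muscle, below the filter level, against 657 and 834 in MCK-PPARb muscle. Myh8 thus passed the filter only through the MCK-PPARb arrays, and the counts and median of this list include it. With signals raised to the filter level its difference was 0.74. Myog, the myogenic factor myogenin, read 1092 and 882 against 1169 and 2964 (0.92 ± 0.43, adjusted p = 0.514), and its difference was 0.25 without MCK-PPARb replicate 2 and 1.59 without MCK-PPARb replicate 1. Adipocyte, Schwann cell and heart markers also had higher summed signals in MCK-PPARb muscle, as given above. Of the satellite cell markers, of which only Chodl was above the filter, 4 were higher and 0 lower, with sums that overlapped between the groups. The part of these cells was not tested.

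**Figure D5:**
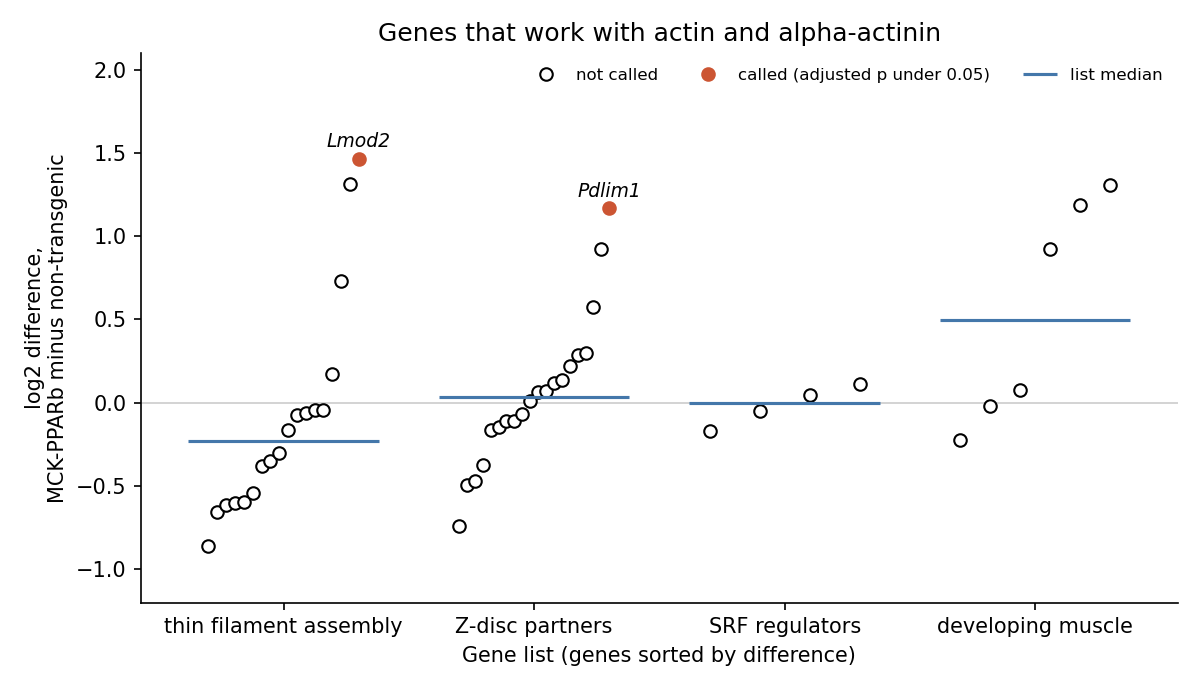
Log2 difference (MCK-PPARb minus non-transgenic) of each measured gene of the 4 lists, sorted within a list; filled points passed over all genes, and blue lines are list medians. Lmod2 (1.46) and Pdlim1 (1.17) are the called genes, and the medians are -0.23, 0.035, -0.0030 and 0.50 from left to right.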

How the data were processed

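RNA of 4 gastrocnemius samples was measured on 1 array each. The deposited table holds a linear signal intensity for each probe set on each array, already scaled to a common level by the authors. The submitters' processing notes name MAS5 and GCOS without versions. The number of arrays limits the precision.

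Signals were taken as log2 without a pseudocount. Of 22690 probe sets, 64 controls were left out, and the 11313 brightest by mean log2 signal, those above the median at 444 signal units, were kept. Of the 22626 non-control probe sets, 20380 had 1 gene symbol, 691 several and 1555 none. For 20351 the symbol was brought up to date by gene number, with the gene table of GRCm38.p6. A gene is its kept probe set of highest mean.

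The comparison used limma 3.58.1 under R 4.3.3 (lmFit, eBayes with an intensity trend, two-sided, Benjamini-Hochberg over the kept probe sets, called at an adjusted p under 0.05). The fit was also run on simulated data in which the spread did not depend on the signal, so that run did not test the intensity trend. To 2 residual degrees of freedom the prior added 5.38. Differences are MCK-PPARb minus non-transgenic. Intervals of differences come from the same fit.

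The members, lists, tests and alternatives were chosen with earlier results of these data known. Named genes are the members, Ppard, in each list the called genes and the 3 others of smallest p, and the 5 genes nearest to Actc1; further genes, among them markers, were named after their values were seen. Alternatives were median centring or quantile normalization, adding a pseudocount of 33.9, a filter at the 75th percentile or none, signals raised to the filter level, robust eBayes or eBayes with no trend, a replicate block, each array left out, an adjusted p under 0.1, no _s_at or _x_at probe sets, and averaging all kept probe sets of each gene. Taking in the Actb control probe sets was added after seeing the data.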

Additional observations from a re-analysis of the deposited data

How the results depend on the processing

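Of 379 recomputed differences of the 24 single genes with a test, 344 kept their direction and their side of the threshold; settings that change the test alone cannot move a difference. The groups do not overlap for Actc1, Actg2, Actn2 and both ratios, so leaving out an array could not turn their sign. Of the other settings, quantile normalization, median centring and the pseudocount moved the differences of these 3 genes, and quantile normalization and the pseudocount moved the ratios, with no change of sign. The filter at the 75th percentile left no value for Actg2, and without _s_at and _x_at probe sets Acta2 and Actg1 had none.

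The genes called in all were 50. They were 14 without the intensity trend, 218 with the replicate block, 102 at an adjusted p under 0.1 and 26 to 105 with each array left out. Without MCK-PPARb replicate 1 or 2 they were 26 and 31, sharing 22 and 25 with the 50. Leaving out an array leaves 1 array in its group, so that a gene's own spread then comes from the other group alone. The replicate block also leaves fewer residual degrees of freedom than the reported fit. Counts from these fits therefore cannot be set directly beside the 50. Of the members other than Actc1, 0 were called in every setting that kept all 4 arrays. Of the thin filament genes, 1 was called in the reported fit, 2 with quantile normalization, the filter at the 75th percentile, robust eBayes and an adjusted p under 0.1, 3 with the replicate block, 0 without the trend and 0 to 2 with each array left out. Of the Z-disc genes, 1 was called, 2 with the replicate block and at an adjusted p under 0.1, 0 with median centring and without the trend, and 0 to 1 with each array left out. Of the developing muscle genes, 0 were called, 1 with the filter at the 75th percentile, robust eBayes, the replicate block, an adjusted p under 0.1 and the mean of probe sets, and 0 to 1 with each array left out. The cause of these shifts was not tested.

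Signs turned for differences near 0. With each array left out in turn, Acta1 ran from -0.82 to 0.15, Acta2 from -0.10 to 0.23, Actb from -0.42 to 0.30, Actg1 from -0.21 to 0.16, Actn3 from -0.62 to 0.11, Actn1 from -0.018 to 0.18, Actn4 from -0.0087 to 0.10 and Srf from -0.21 to 0.10. With median centring these were Acta2 (-0.040), Actn1 (-0.025) and Actn4 (-0.060), and with quantile normalization Actg1 (0.0042). The signs of Acta1, Acta2, Actb, Actg1, Actn3, Actn4 and Srf turned without non-transgenic replicate 1, that of Actn1 without MCK-PPARb replicate 1, and those of Acta2, Actb and Actn4 without MCK-PPARb replicate 2.

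The labels give both groups the replicate numbers 1 and 2. Deviations of same-numbered arrays from their group means correlated at r = 0.276 over the kept probe sets. The labels name nothing but the number that these 2 pairs of arrays share, and whether they share more was not tested. With the replicate block Actn2 was at adjusted p = 0.0602 and Wdr1, Tmod4, Flnc and Chrna1 passed (adjusted p = 0.00321, 0.0353, 0.0169 and 0.00460). With the Actb control probe sets taken in, the brightest of them represented Actb, with a difference of -0.21.

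With 2 arrays a group, the fit rests on the spread pooled over genes, and an exact test of a single value cannot go below p = 0.333. Signals below the filter level carry little information on size. Probe sets at the top of the scale depend on non-transgenic replicate 1, the brighter array there.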

Other observations

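Of the 7 heart muscle markers other than Actc1, 4 had higher and 3 lower mean log2 signals in MCK-PPARb muscle. Myh6, the alpha myosin heavy chain of the heart, read 124 and 251 on the non-transgenic and 468 and 1103 on the MCK-PPARb arrays. Tnni3, cardiac troponin I, read 242 and 175 against 287 and 1350, with its highest value on MCK-PPARb replicate 2. Mybpc3 read 389 and 355 against 727 and 755, so that only its MCK-PPARb signals lay above the filter level of 444 units. Nppb, a natriuretic peptide, read 68.7 and 227 against 425 and 210. The lower ones were Nppa (-0.31), Myl7 (-0.22) and Ryr2, the ryanodine receptor of the heart (-0.20), and their groups overlapped. Of the 7, Mybpc3 alone passed the filter on low signals and it was not called, and the others have no test.

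Of the 6 macrophage markers, 3 were higher and 3 lower. Adgre1 read 818 and 958 against 1510 and 1648, while Csf1r read 3453 and 3123 against 3687 and 2860, and neither was called with limma.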
